A study of Caenorhabditis elegans with 45 samples.

Results

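The sperm genes described here are the rows of the count table whose WormBase identifier carries a symbol of the msp, spe, ssp or nspd series followed by a number. There were 80 such genes among 20182 rows, made up of 30 msp, 28 spe, 12 ssp and 10 nspd genes. They were chosen by name, with earlier results of these data known, and no measured value entered the rule. Of the 12 ssp genes, 2 share the symbol ssp-9 and are told apart by their identifiers, WBGene00006038 and WBGene00006040.

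Polyadenylated RNA of whole worms of the nematode Caenorhabditis elegans was sequenced in 45 libraries, 1 for each time point. In glp-4(bn2), a temperature-sensitive mutant in which germ cells fail to multiply at the restrictive temperature, 7 libraries were taken every 2 h from 40 to 52 h of continuous development. In N2 dauer exit, larvae of the wild-type laboratory strain that had arrested as dauers, a long-lived diapause stage, were put on food, and 22 hourly libraries were made from 1 to 22 h. In N2 continuous development, hatched first-stage larvae were fed and 16 libraries were taken hourly at sample-name hours 21 to 36, which the labels give as 22 to 37 h in development. Food was the bacterium OP50 in all 3 courses, and the labels do not state the growth temperature, on which the glp-4(bn2) defect depends.

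C. elegans hermaphrodites make sperm first, during the last larval stage, and then switch the germ line to oocytes for the rest of their life. Sperm develop in primary spermatocytes, where nearly all sperm transcripts are made before the meiotic divisions. The major sperm proteins, encoded by the msp genes, form the cytoskeleton on which the crawling sperm moves and also signal to oocytes. They are packed during spermatogenesis into fibrous bodies held on membranous organelles. The spe genes were named from mutants with defective sperm and act at every step, in spermatocyte regulation, organelle assembly, activation of the round spermatid and fertilization. The ssp genes encode small sperm-specific proteins with a domain like that of the major sperm proteins, and the nspd genes encode small nematode-specific peptides.

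Library totals ran from 23978316 to 36817376 counts in glp-4, from 18521397 to 23904100 in dauer exit and from 18512549 to 43984242 in continuous N2. Levels are given as CPM, the count scaled by the library total as is usual in RNA-seq. Without replicates of a time point, the p-values of the fits measure only the scatter of libraries around a fitted curve or group mean. CPM is relative to the other RNA of the whole worm, and in whole worms more cells of a type and more RNA per cell cannot be told apart. Of the 80 genes, 9 had no count in any library, namely 7 msp genes (msp-19, msp-51, msp-53, msp-56, msp-65, msp-79 and msp-113) and 2 nspd genes (nspd-5 and nspd-8). Members of both families have near-identical copies, and the labels do not state how shared reads were assigned, so values of single msp and nspd genes are uncertain. If shared reads were left out, the msp and nspd sums, levels per kb and hours at 1 CPM are affected too.

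In both N2 courses the sperm genes came on within a few hours and reached a total of 2635 CPM in dauer exit, at 20 h, and 2389 CPM in continuous development, at 36 h. As counted, the summed spe level was highest throughout, at 1306 CPM in dauer exit (20 h) and 1074 CPM in continuous N2 (36 h). Since msp and nspd sums may lack shared reads, the order of the family sums need not be that of the RNA. The msp genes summed to 310 CPM in dauer exit at 21 h and to 367 CPM in continuous N2 at 35 h. No msp count was seen in dauer exit before 7 h, and at 10 h the family stood at 0.0994 CPM. The ssp genes reached 496 CPM in dauer exit and 421 CPM in continuous N2, and the nspd genes 552 CPM and 536 CPM.

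**Figure D1:**
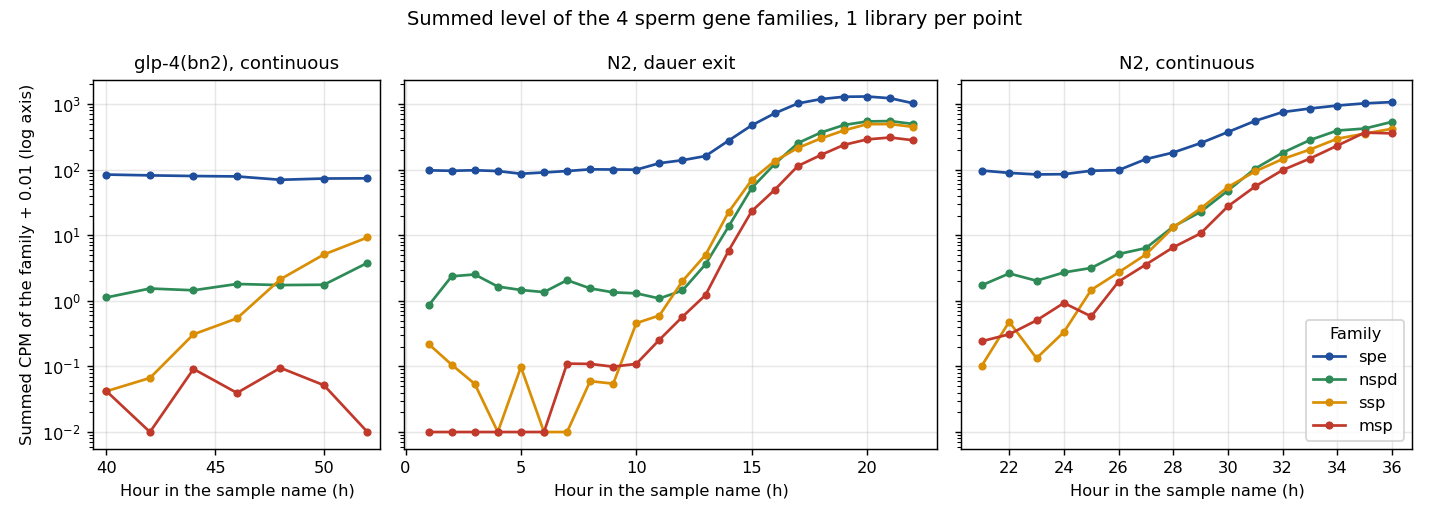
Summed CPM of the spe, nspd, ssp and msp genes in each library, plotted on a log axis (CPM + 0.01) against the hour in the sample name, for glp-4, dauer exit N2 and continuous N2. The msp sum climbs to 310 CPM in dauer exit and 367 CPM in continuous N2, while in glp-4 it stays at or below 0.0851 CPM.

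The spe genes started from a base of 97.8 CPM at 1 h of dauer exit and 97.1 CPM at hour 21 of continuous N2. Most of that base came from 3 genes. One was spe-39, which encodes a vesicle-traffic protein also needed outside sperm, at 35.0 CPM in dauer exit and 37.4 CPM in continuous N2 in these first libraries. The others were spe-48, at 31.8 and 29.5 CPM, and spe-15, a myosin VI gene that sorts components during spermatid budding. Over the first 3 libraries spe-15 had 14.3 to 16.4 CPM in dauer exit and 15.9 to 18.3 CPM in continuous N2. In the first library of dauer exit the nspd genes summed to 0.840 CPM, the ssp genes to 0.210 CPM and the msp genes to 0. In that of continuous N2 these sums were 1.72, 0.0930 and 0.232 CPM.

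In dauer exit 63 of the 80 genes had enough counts to be tested, and 61 of them rose between 1 and 22 h (edgeR quasi-likelihood test of a spline over the hour, adjusted p under 0.05 and a fitted log2 change of 1 or more). Of all genes tested 29.9% were called higher and 24.7% lower. All 16 msp, all 12 ssp and all 7 nspd genes tested were among those that rose, with 26 of 28 spe genes. In continuous N2 61 of the 80 were tested and 59 rose, against 20.6% of all genes called higher and 15.3% called lower. These were 15 of 15 msp, 11 of 11 ssp, 7 of 7 nspd and 26 of 28 spe genes. A gene at 0 early could pass the filter on low counts only by being high late, so these counts describe the genes that passed and not all 80. By edgeR 0 sperm genes were called lower in either course, also 0 by DESeq2, and 0 had a lower fitted value at an unadjusted p under 0.05.

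The genes not called were the same in both courses, spe-39 and spe-48. In dauer exit spe-39 had 48.2, 57.7 and 63.5 CPM at 20 to 22 h, against 35.0, 33.9 and 38.8 CPM at 1 to 3 h, and all later values lay above all early ones. Its fitted change of 0.96 ± 0.09 (SE, log2; edgeR adjusted p = 6.35e-09) fell just under the size required, and with RLE size factors or DESeq2 it was 1.04 and passed. In continuous N2 spe-39 changed by 0.07 ± 0.09 (adjusted p = 0.527, edgeR). The level of spe-48 ranged from 23.1 to 36.2 CPM in dauer exit and from 18.4 to 34.4 CPM in continuous N2, with no change past the threshold (edgeR adjusted p = 0.648 and 0.995).

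The ratio of the last 3 to the first 3 libraries gave the size of the rise without a model. A window with fewer than 3 counts over its 3 libraries was set to a floor of 3 counts. Its median was 6.83 on the log2 scale over the 63 sperm genes tested in dauer exit, against -0.03 over all genes tested. In continuous N2 the medians were 6.61 over 61 sperm genes and -0.05 over all genes. By family the median ratio in dauer exit was 9.78 for nspd, 8.21 for ssp, 7.19 for msp and 5.89 for spe genes. In continuous N2 it was 8.43 for nspd, 8.79 for ssp, 7.32 for msp and 5.25 for spe genes. No msp gene had a count in the first 3 libraries of dauer exit. Every msp ratio there is therefore a lower bound, set by the floor and the late level. Many msp ratios in continuous N2, and some ssp and nspd ratios in both courses, are bounds of the same kind. The medians of msp, ssp and nspd genes thus give no order of the size of their rise. The smaller ratios of the spe family go with its higher first values.

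The msp genes lie in groups on 2 chromosomes (build WBcel235). On chromosome II 13 genes lie between 4785898 and 5810330 and summed to 271 CPM at hours 34 to 36 of continuous N2. On chromosome IV 17 genes lie between 5055631 and 10143740 and summed to 48.1 CPM. Per kb of exon, the msp genes with the highest levels at these hours were msp-50 (WBGene00003443; chromosome II, 5199797 to 5200180), with 196 CPM per kb, msp-40 (chromosome II, 4825414 to 4825797), with 161, and msp-64 (chromosome II, 5809947 to 5810330), with 137. In dauer exit msp-50 had 63.0, 76.4 and 72.6 CPM at 20 to 22 h, against 0 in each of the first 6 libraries. That is at least 1583-fold higher than the floor of 3 counts over hours 1 to 3. In continuous N2 it had 54.3, 88.5 and 82.6 CPM at hours 34 to 36, against 0.139, 0.171 and 0.329 CPM at hours 21 to 23. The 2 sets of hours did not overlap in either course. In continuous N2 the linear fit gave a rise of 11.65 ± 0.58 (SE, log2, edgeR adjusted p = 2.68e-10), which is larger than the change in CPM.

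As counted, several small genes stood above the msp genes per length. The nspd gene nspd-2 (WBGene00010633; chromosome IV, 9844060 to 9844272) reached 613 CPM per kb of exon at hours 34 to 36 of continuous N2. Its neighbours in that order were nspd-1, with 505, and nspd-7, with 382 CPM per kb. The ssp genes with the highest levels were ssp-10 (WBGene00006039; chromosome IV, 9850702 to 9851031), ssp-16 and ssp-34, with 228, 221 and 208 CPM per kb. Among spe genes spe-18, whose protein is needed to assemble fibrous bodies, led with 185 CPM per kb, followed by spe-11 with 67.1 and spe-46 with 51.8. The libraries overlapped for some of these neighbours in continuous N2. The counts of ssp-10 gave 59.3 to 92.5 CPM at these hours and those of ssp-16 68.7 to 79.1 CPM, at the same exon length of 330 bases, so the order of this pair lay within the spread over hours.

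The course of single genes shows how steep the rise was. In dauer exit nspd-2 had 3.34, 31.5 and 76.6 CPM at 14, 16 and 17 h and its highest value, 203 CPM, at 21 h. In continuous N2 it had 11.2 CPM at 30 h, 42.4 CPM at 32 h and 155 CPM in the last library, its highest. No count of nspd-2 was seen in the first 3 libraries of dauer exit, so its last 3 libraries there were at least 4355-fold higher than the floor. For spe-18 dauer exit held 22.7, 58.6, 120 and 203 CPM at 14 to 17 h and 279 CPM at 20 h. In continuous N2 spe-18 had 50.1 CPM at 30 h and 262 CPM at 35 h, its highest. The fitted change of spe-18 was 8.30 ± 0.59 in dauer exit and 10.83 ± 0.56 in continuous N2 (SE, log2, edgeR adjusted p = 5.61e-16 and 3.29e-10). The first is from a spline and the second from a linear term beside a wave, so their sizes do not compare the courses. In continuous N2 the fitted change exceeds the change in CPM from the first library (0.418 CPM) to the last (217 CPM). In both genes the late libraries lay far above all early ones. A level of 50% of the highest CPM was passed at 18 and 34 h by nspd-2, after spe-18 at 17 and 32 h.

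For each gene 2 measures of onset were taken in each N2 course. The first was the hour from which CPM stayed at or above 1. The second, for genes that reached 1 CPM, was the first hour of the unbroken run up to the highest value in which CPM stayed at or above a set percentage of that value, which does not favour abundant genes. By the 1 CPM measure the median onset in dauer exit was 14 h for 27 spe genes, 15 h for 7 nspd genes, 15.5 h for 10 ssp genes and 16 h for 14 msp genes. In continuous N2 it was 28 h for 27 spe genes, 28 h for 7 nspd genes, 30.5 h for 12 ssp genes and 31 h for 15 msp genes. So the msp median came 2 h after the spe median in dauer exit and 3 h after it in continuous N2. These medians include genes that were at 1 CPM or more from the first library to the last, 6 spe genes in dauer exit and 7 spe genes with nspd-7 in continuous N2. In dauer exit spe-11, spe-47 and spe-54 also began above 1 CPM (1.39, 1.13 and 1.68 CPM) but then fell below it. Their onsets of 14, 9 and 15 h are thus returns to that level. Leaving out the 6 genes at 1 CPM or more in every glp-4 library, a step chosen after seeing the data, did not move either difference.

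The order held at 10% of the highest CPM, where the msp median came 2 h after the spe median in both courses (16 against 14 h in dauer exit, 31 against 29 h in continuous N2). At 50% of the highest CPM, and without spe-39 and spe-48, which were above it from the first hour, the spe median was 17 h in dauer exit and 32 h in continuous N2. The msp medians at 50% were 18.5 h in dauer exit and 34 h in continuous N2, and those of both ssp and nspd were 18 and 34 h. The ranges of single genes overlapped, from 14 to 20 h for these spe genes and from 17 to 20 h for msp genes in dauer exit. In dauer exit 15 of 16 msp genes and 4 of 25 spe genes passed 50% at 18 h or later. No test was made of these differences, since each gene's hour comes from the same single library per hour.

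**Figure D2:**
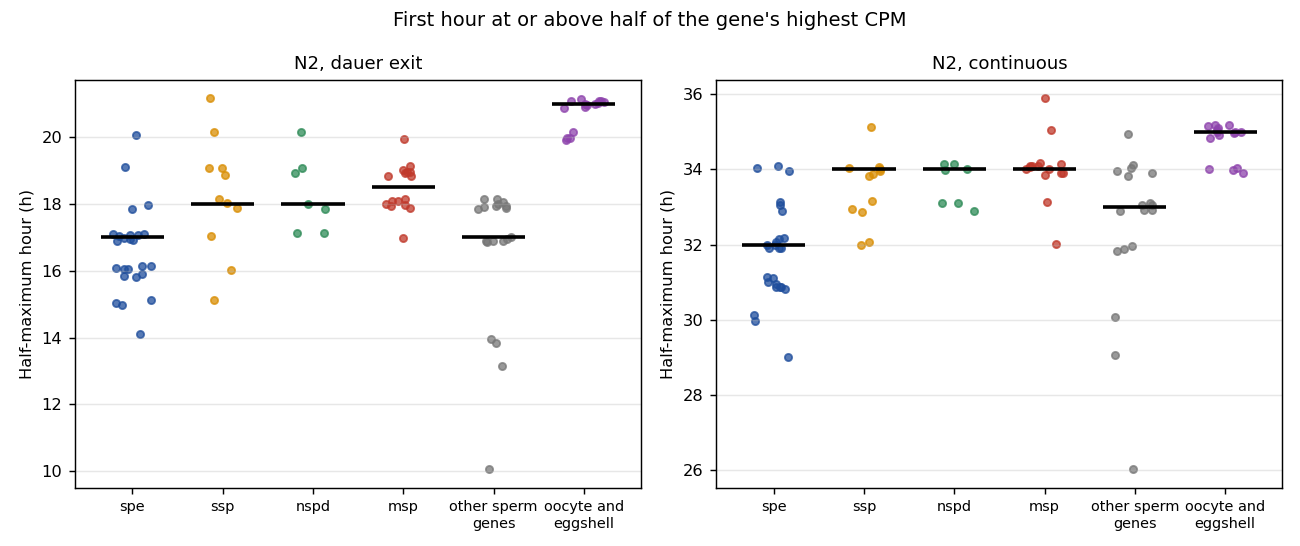
First hour at which a gene held 50% of its highest CPM in the course, for dauer exit N2 and continuous N2. Each point is 1 gene, shifted slightly at random to show overlapping points, bars are medians, and genes above that level in the first library are left out. The spe bar lies at 17 and 32 h, the msp bar at 18.5 and 34 h, and the bar of oocyte and eggshell genes at 21 and 35 h. Most oocyte and eggshell genes were highest in the last library, so their hours depend on where sampling ended.

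Among the genes below 50% of their highest CPM at first, the earliest in both courses was spe-44 (WBGene00007732; chromosome IV, 12452063 to 12454215), which encodes a transcriptional regulator of spermatocyte genes. It passed 50% of its highest CPM at 14 h in dauer exit and at 29 h in continuous N2. In dauer exit it had 11.8 CPM at 12 h and 74.2 CPM at 16 h, its highest, and then declined to 22.4 CPM at 22 h. In continuous N2 it had 6.70 CPM at 26 h, peaked at 50.5 CPM at 32 h and stood at 29.5 CPM at 36 h. At those peaks msp-50 had 8.94 CPM in dauer exit and 22.5 CPM in continuous N2, where its later highest values were 76.4 and 88.5 CPM.

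**Figure D3:**
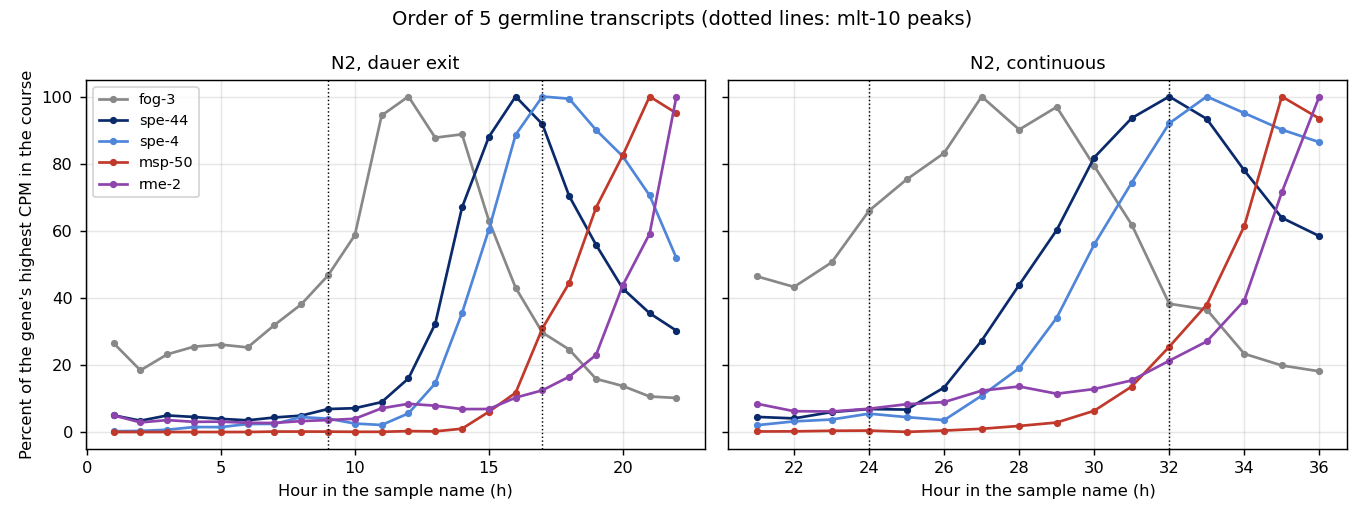
CPM of fog-3, spe-44, spe-4, msp-50 and rme-2 as percent of each gene's highest value in the course, against the hour in the sample name, for dauer exit N2 and continuous N2 (1 library per point). In both courses the curves peak in the same order, with spe-44 highest at 16 and 32 h and msp-50 at 21 and 35 h, and dotted lines mark the mlt-10 peaks at 9, 17, 24 and 32 h.

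Genes of spermatocyte meiosis and of the fibrous body-membranous organelles passed 50% after spe-44. The median of 7 such genes was 16 h in dauer exit (15 to 17 h) and 31 h in continuous N2 (30 to 32 h), with spe-39 left out. One of them, spe-4, encodes a presenilin-family protein of these organelles. It had 43.8, 64.3 and 72.6 CPM at 15, 16 and 17 h of dauer exit, and 37.7 CPM at 22 h. In continuous N2 spe-4 had 30.9 CPM at 30 h and its highest value, 55.3 CPM, at 33 h. The casein kinase gene spe-6, required for spermatocyte division and fibrous body assembly, passed 50% at 15 and 31 h. The palmitoyltransferase gene spe-10, needed for these organelles, passed it at 16 and 31 h. The kelch-domain gene spe-26, with highest values of 64.3 CPM in dauer exit and 56.5 CPM in continuous N2, passed it at 17 and 32 h, as did spe-15 and spe-18.

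Genes of sperm activation, by which the round spermatid becomes a crawling sperm, had a median of 17 h in dauer exit (16 to 18 h) and 32 h in continuous N2 (31 to 34 h; 7 genes each). They include the tyrosine kinase gene spe-8, at 17 and 32 h, with highest values of 28.3 CPM in dauer exit and 18.7 CPM in continuous N2. Of its pathway partners spe-19 passed 50% at 16 and 31 h, spe-27 at 17 and 33 h and spe-12 at 18 and 34 h. A further member of that pathway, spe-43, did so at 17 and 32 h. Also in the activation list, spe-47, which encodes a protein with a major sperm protein domain, passed 50% at 16 and 32 h and reached 33.3 CPM in dauer exit and 33.2 CPM in continuous N2. The partner spe-29 stayed below 1 CPM throughout (highest 0.686 CPM in dauer exit and 0.751 CPM in continuous N2), and 117 bases of its exons overlap those of gon-1 on the other strand. The exons of spe-27 overlap those of C06E7.88 by 61 bases on its own strand, and the strand setting of the counts is not known.

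Genes of sperm proteins needed at fertilization had the same median as the organelle genes, so these hours give no order between the 2 groups. It was 16 h in dauer exit (15 to 20 h) and 31 h in continuous N2 (30 to 34 h; 8 genes each). The calcium channel gene spe-41 passed 50% at 15 and 31 h, spe-42 and spe-49, which encode a related pair of membrane proteins, at 16 h each in dauer exit and at 30 and 31 h in continuous N2, and the EGF-repeat gene spe-9 at 16 and 31 h. The gene of another membrane protein of this group, spe-38, passed it at 16 and 31 h, with highest values of 3.97 CPM in dauer exit and 3.52 CPM in continuous N2. The latest were 2 genes of secreted proteins, spe-51 at 19 and 33 h and spe-36 at 20 and 34 h. The exons of spe-36 overlap those of F12F6.1 and F40F11.3 by 62 and 68 bases, those of spe-49 overlap srn-1 by 63 bases and those of spe-38 overlap impt-1 by 58 bases. The paternal-effect gene spe-11, whose protein is delivered to the embryo, passed 50% at 17 and 33 h.

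Among the latest sperm genes was ssp-37 (WBGene00012211, on chromosome I), at 1 CPM from 20 h in dauer exit and 35 h in continuous N2; msp-59 followed at 22 and 36 h. The latest onset at 1 CPM among ssp genes in continuous N2 was 36 h, shared by ssp-36 and ssp-32, low genes that never passed 1.58 CPM in dauer exit or 1.52 CPM in continuous N2. The latest nspd gene in both courses was nspd-9, at 17 and 31 h. In dauer exit ssp-37 had no count up to 17 h, then 0.0462, 0.141, 2.34, 6.57 and 8.38 CPM at 18 to 22 h. In continuous N2 it had no count up to 33 h and then 0.273, 2.72 and 4.95 CPM. At 36 h its family member ssp-16 had 79.1 CPM and had passed 1 CPM at 26 h, 9 h before ssp-37. The rise of ssp-37 in dauer exit passed the test (edgeR adjusted p = 6.19e-05), while in continuous N2 it had too few counts to be tested.

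**Figure D4:**
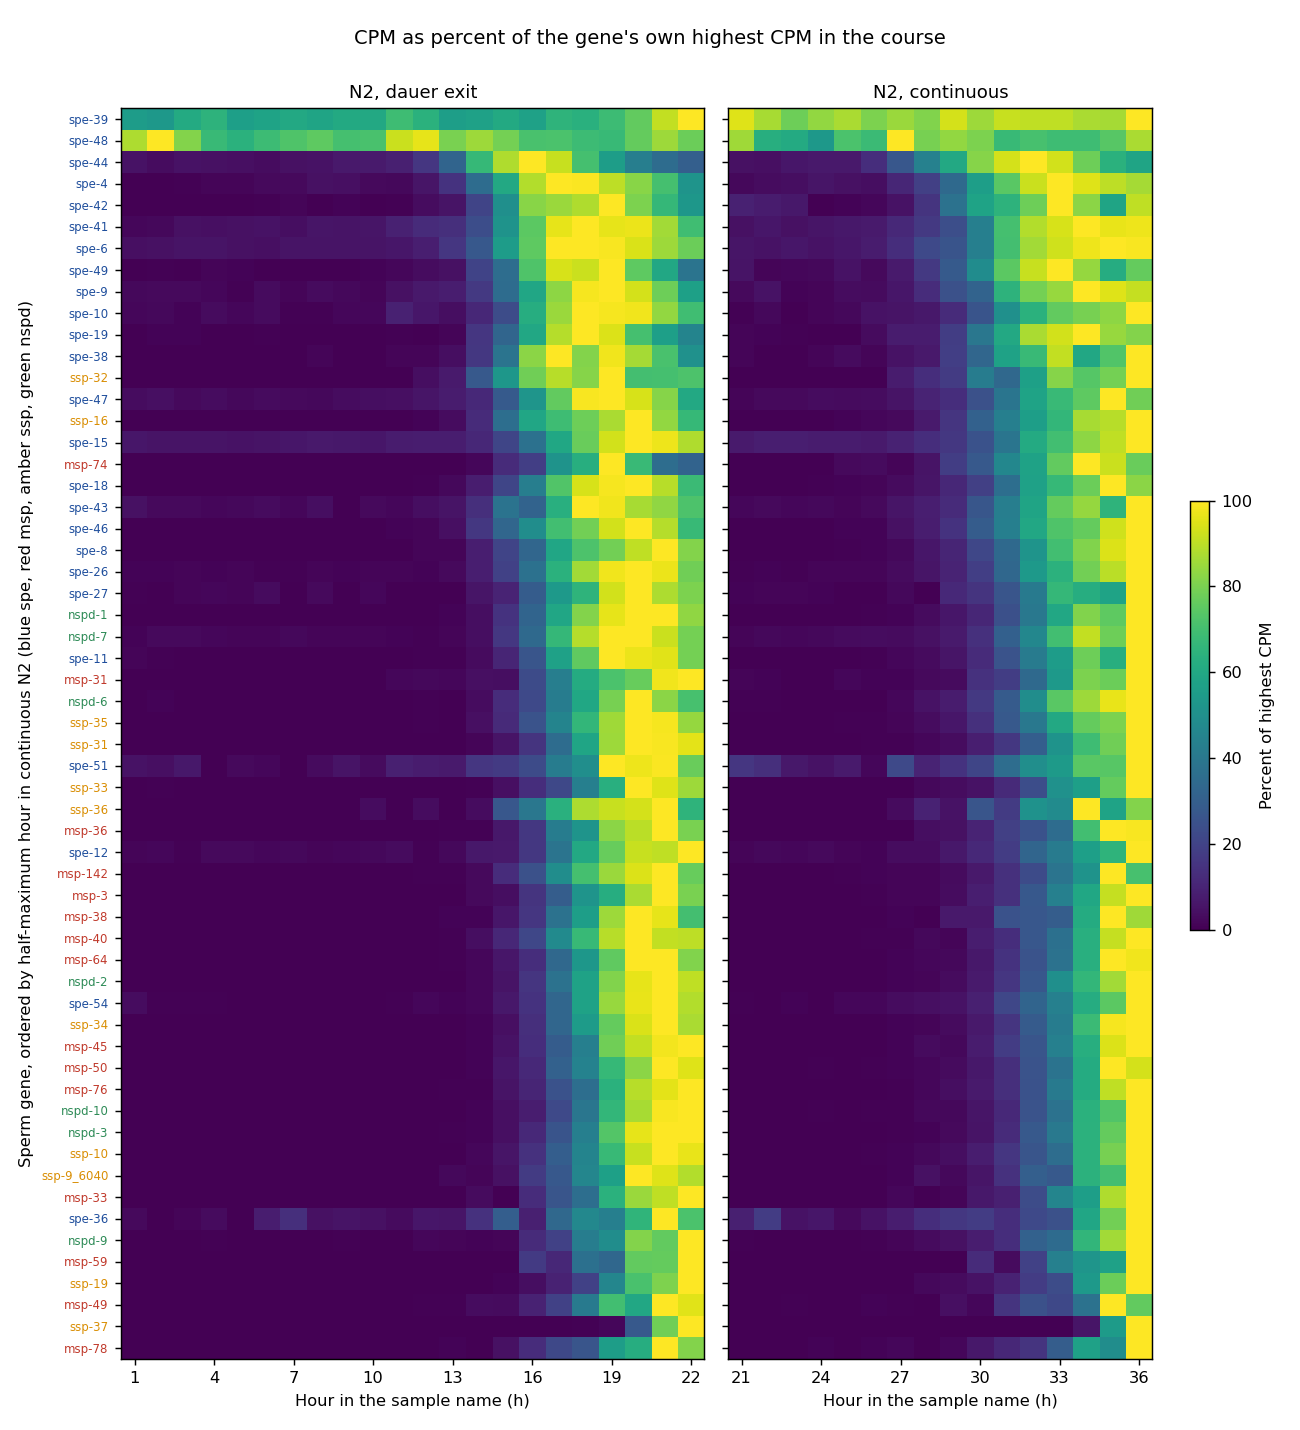
CPM of 58 sperm genes, among the 60 that reached 1 CPM in both N2 courses, as percent of each gene's highest value in the course, by hour in the sample name (dauer exit left, continuous right). Rows are ordered from top to bottom by the hour at which the gene held 50% of its highest value in continuous N2, so that order in the right panel is set by the sorting. Here spe names (blue) fill most upper rows and msp names (red) most lower rows, and spe-44 and spe-4 dim again at the end of dauer exit.

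Many early genes had passed their highest level by the end of dauer exit. Of the 61 genes that reached 1 CPM in that course, 49 had their highest value before 22 h, and 22 stood below 75% of it at 22 h. Of these 22, 16 were spe genes, with 3 ssp, 2 msp and 1 nspd gene. The lowest were spe-44 at 30.2%, msp-74 at 31.7% and spe-49 at 38.6% of their highest CPM. In continuous N2 22 of 61 genes had their highest value before 36 h and 3 stood below 75% of it at 36 h, spe-44 (58.4%), msp-142 (70.7%) and ssp-9 WBGene00006038 (72.1%). The 2 courses end at different points of development, so these counts do not compare them.

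The order of genes was alike in the 2 N2 courses. Over 58 genes with a 50% hour after the first library in both courses, the hour in dauer exit was a median of 15 h earlier than in continuous N2 (difference -15 h, range -17 to -14 h), and 55 genes lay within 1 h of that median. The Spearman correlation of the hours over these 58 genes was 0.87, where each hour comes from shared libraries and many genes are tied. By the 1 CPM measure the median difference was -14 h over 50 genes (range -19 to -12 h) and the correlation 0.91. The molting gene mlt-10, which peaks once per larval stage, had its peaks at 9 and 17 h in dauer exit and at 24 and 32 h in continuous N2, differences of -15 h each. By the 50% measure the median difference of the sperm genes equalled that of the mlt-10 peaks (-15 h). By the 1 CPM measure it was -14 h. Only 22 of 61 genes were highest before the last library in continuous N2, against 49 of 61 in dauer exit. Most 50% hours in continuous N2 therefore depend on where sampling ended. The level of spe-44 was highest 1 h before the later mlt-10 peak in dauer exit, at 16 h, and in the same library in continuous N2, at 32 h.

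Other germline genes were set beside them from lists of known genes, drawn up with earlier results of these data known. The sperm fate regulators fog-1 and fog-3, which commit germ cells to sperm, were high before the sperm genes. The level of fog-3 was 43.5 CPM at 12 h and 4.41 CPM at 22 h of dauer exit, and 29.6 CPM at 27 h and 5.36 CPM at 36 h of continuous N2. Both fell in dauer exit (fog-1 by 1.28 ± 0.39 and fog-3 by 1.36 ± 0.32, SE, log2; edgeR adjusted p = 5.30e-05 and 1.00e-08). In continuous N2 fog-1 fell by 2.54 ± 0.38 (adjusted p = 3.42e-05), while the change of fog-3, -1.56 ± 0.66, missed the threshold (adjusted p = 0.0535, edgeR). Of 21 regulators of sperm fate tested in each course, 7 rose and 4 fell in dauer exit, and 6 rose and 2 fell in continuous N2.

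A list of sperm genes outside the 4 name series was fitted in the same way. Of 19 tested, 17 rose in dauer exit and 18 in continuous N2, with median 50% hours of 17 and 33 h. The dysferlin gene fer-1, needed for membranous organelle fusion, passed 50% at 14 and 29 h, as spe-44 did. The sperm phosphatase gene gsp-3 had 172 CPM at 22 h of dauer exit and 191 CPM at 36 h of continuous N2. It passed 50% of its highest CPM at 17 and 33 h, as did gsp-4, the other sperm gene of that phosphatase pair. The translational repressor gld-1, which acts in both sperm and oocyte fate, rose to 603 CPM in dauer exit and 372 CPM in continuous N2 in the last libraries. Oocyte and eggshell genes came later, with median 50% hours of 21 h in dauer exit (20 to 21 h) and 35 h in continuous N2 (34 to 35 h) over the 15 that were below it at first. In each course 15 of the 16 listed were highest in the last library, so their 50% hours depend on where sampling ended. The yolk receptor gene rme-2 had 399 CPM in the last library of dauer exit and 145 CPM in that of continuous N2, its highest in each. Over all other genes called higher, the median 50% hour was 16 h in dauer exit (quartiles 11 and 18 h) and 32 h in continuous N2 (31 and 33 h), against 18 h (17 and 19 h) and 33 h (32 and 34 h) over the 59 sperm genes with such an hour.

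The labels name no sex, and male genes were looked at because males make sperm too. Of 6 male markers in the table, 2 rose and 1 fell in each N2 course (5 tested in dauer exit and 6 in continuous N2). Their summed level ranged from 3.47 to 23.4 CPM in dauer exit and from 5.37 to 25.5 CPM in continuous N2, and at most 1 of the 6 was at 0 in any library. Most of that sum was mab-3, with up to 23.1 CPM in continuous N2, while the sensory neuron genes pkd-2 and lov-1 stayed at or below 0.829 and 0.794 CPM there. Their part in the sperm gene levels was not tested.

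In glp-4 most sperm genes were at or near 0. All 7 glp-4 libraries lay below all 3 continuous N2 libraries of hours 34 to 36 for 67 of the 80 genes, no gene had them all above, and the 9 empty genes were at 0 in both. Over all 15839 genes tested, 28.3% had all glp-4 libraries below and 19.3% had them all above. By edgeR, 62 of the 65 sperm genes tested were lower in glp-4 and 0 higher, against 21.6% and 14.9% of all genes. DESeq2 also called 0 higher, and 0 were higher at an unadjusted p under 0.05. These were 18 of 18 msp, 26 of 28 spe, 11 of 12 ssp and 7 of 7 nspd genes. Genes with few or no counts in glp-4 passed the filter on low counts only through N2, where they were high, so their direction was fixed by the filter and these counts do not describe all 80 genes. The glp-4 libraries were taken at other hours than N2, from 40 to 52 h, so genotype and time cannot be told apart in this comparison. The median log2 ratio of glp-4 to N2, with the floor of 3 counts over the libraries of a group, was -7.78 over the 65 sperm genes that passed this filter and 0.05 over all genes tested, and the 15 sperm genes that did not pass are not in it.

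No msp gene had more than 3 counts over the 7 glp-4 libraries together. The summed msp level was 0.0319, 0, 0.0815, 0.0295, 0.0851, 0.0417 and 0 CPM from 40 to 52 h, against 233, 367 and 358 CPM in N2 at hours 34 to 36. With no count in any glp-4 library, msp-40 was at least 4553-fold lower than in N2 and msp-64 at least 3835-fold. The 2 counts of msp-50 made it 8192-fold lower, with a 95% counting interval from 2267 to 67654. Likewise 2 counts each left msp-31 and msp-49 at 361-fold (interval 99.2 to 2994) and 606-fold (167 to 5019) lower. Of the other families, nspd-1 and nspd-2 had no count in glp-4 and were at least 8160-fold and 9685-fold lower, and ssp-16 at least 5468-fold. In glp-4 ssp-35 had 2 counts and ssp-34 had 1, which made them 7397-fold (2047 to 61088) and 14840-fold (2663 to 586246) lower. After nspd-7 the nspd genes with the highest mean level in glp-4 were nspd-6 and nspd-10, which had 11 and 9 counts over the 7 libraries and were 220-fold and 1998-fold lower than in N2. Bounds from the floor of 3 counts and ratios from 1 or 2 counts rest on different bases and give no order between genes. These intervals and floors cover counting error only. In all, 41 of the 80 genes had no count in glp-4 (the 9 empty genes included), 11 had 1 to 3 counts and 28 had more, of which 22 were spe, 4 nspd and 2 ssp genes.

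**Figure D5:**
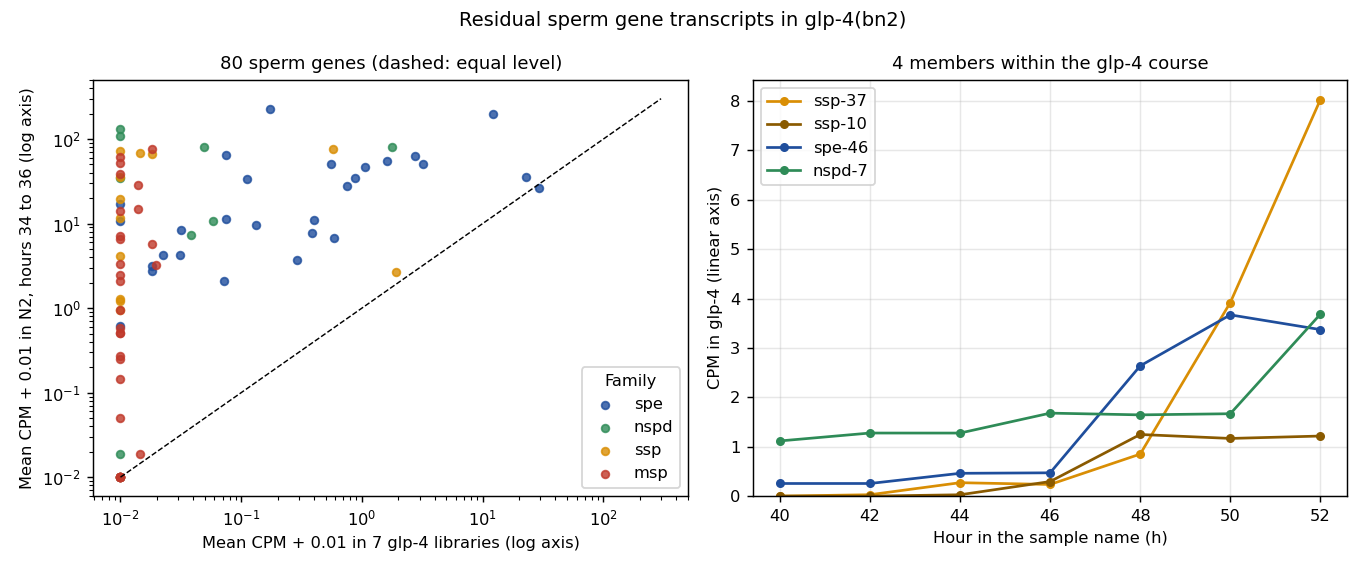
Left, mean CPM of each of the 80 sperm genes in the 7 glp-4 libraries against its mean in continuous N2 at hours 34 to 36 (log axes, 0.01 added, dashed line at equal level). Right, CPM of ssp-37, ssp-10, spe-46 and nspd-7 in each glp-4 library from 40 to 52 h (linear axis). Most genes lie far to the side of the dashed line where N2 is higher. The 9 genes at 0 in both groups lie on the line, and spe-39, spe-48 and ssp-37 lie near it. In glp-4 ssp-37 climbs to 8.03 CPM at 52 h.

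What remained in glp-4 was mostly spe transcripts, summing to between 70.2 and 84.3 CPM per library, against 97.8 CPM in the first dauer exit library. The largest contributions came from spe-48 and spe-39, the genes not called in either N2 course. In glp-4 spe-48 averaged 29.2 ± 2.61 CPM (SD, n = 7), against 26.4 ± 3.25 CPM in N2 at hours 34 to 36 (n = 3), a difference of 0.15 ± 0.12 (SE, log2) that missed the threshold (edgeR adjusted p = 0.306). For spe-39 the values were 23.0 ± 3.59 CPM in glp-4 and 35.8 ± 2.99 CPM in N2, a difference of -0.63 ± 0.13 on the log2 scale (SE; edgeR adjusted p = 0.00205), which is under the size required for a call. The ranges of spe-39 did not overlap, with 19.2 to 28.9 CPM in glp-4 and 34.0 to 39.3 CPM in N2.

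Other genes kept a low level in every glp-4 library while lying far below N2. The myosin gene spe-15 had a lowest value of 6.99, a median of 13.6 and a highest of 15.1 CPM in glp-4, against 180 to 217 CPM in N2, a difference of -4.01 ± 0.20 (SE, log2; edgeR adjusted p = 3.88e-08). For spe-4 glp-4 held 1.71 to 4.43 CPM, against 47.8 to 52.6 CPM in N2, and for spe-41 1.43 to 3.51 CPM, against 62.8 to 64.8 CPM. The nspd gene nspd-7 had 1.12 to 3.68 CPM in glp-4, against 70.7 to 90.8 CPM in N2. These 4 genes with spe-39 and spe-48 were the ones at 1 CPM or more in every glp-4 library. In N2 the first 3 dauer exit libraries had 14.3 to 16.4 CPM of spe-15 and 0.756 to 2.38 CPM of nspd-7, before the sperm genes rose. Pooled over these libraries spe-41 had 2.41 CPM, while spe-4 had 0.297 CPM, below its range in glp-4. The regulator spe-44 was nearly gone in glp-4, with at most 0.199 CPM, against 29.5 to 39.4 CPM in N2 (difference -8.28 ± 0.48, edgeR adjusted p = 1.05e-07). Its pooled level in the first 3 dauer exit libraries was 3.32 CPM, above all its glp-4 values.

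Within the glp-4 course 17 sperm genes had enough counts for a trend test, and 3 rose between 40 and 52 h, against 5.17% of all genes called higher and 1.53% lower. Over all genes that was 745 higher and 220 lower, and with scaling by library size only 635 higher and 404 lower. A gene near 0 in the early libraries, as ssp-37 and ssp-10 were, could be tested only if it was higher late, so nothing is read from 3 of 17 against these shares. The fit has 7 libraries and 4 coefficients. Of the 3 that rose, the gene with the highest end level was ssp-37. It had 0, 0.0284, 0.272, 0.236, 0.851, 3.92 and 8.03 CPM from 40 to 52 h (fitted rise 8.53 ± 0.82, SE, log2, edgeR adjusted p = 0.0124). Its last value was above the highest in continuous N2, 4.95 CPM at 36 h, and near the 8.38 CPM at 22 h of dauer exit. Over the whole course ssp-37 did not differ from N2 at hours 34 to 36 past the threshold (difference -0.47 ± 1.44, adjusted p = 0.800, edgeR), and the 2 sets of libraries overlapped. The estimate was 0.29 without N2 hour 36 and 0.68 with glp-4 hours 48 to 52 alone, neither past the threshold.

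The other sperm genes that rose in glp-4 stayed far below their N2 levels. For ssp-10 glp-4 had 0, 0, 0.0272, 0.295, 1.25, 1.17 and 1.22 CPM (fitted rise 9.28 ± 1.00, edgeR adjusted p = 0.0159), against 59.3 to 92.5 CPM in N2 at hours 34 to 36. For spe-46, a gene of the sperm activation list, the level was 0.255 CPM at its lowest, 0.472 at the median and 3.67 CPM at its highest (fitted rise 5.13 ± 0.55, adjusted p = 0.0159, edgeR), against 46.6 to 61.0 CPM in N2. Without a model, the pooled last 3 glp-4 libraries of spe-46 were 9.60-fold above the first 3, less than the fitted rise. Their levels were high in the last 3 libraries and low in the first 3, with no overlap. The values of nspd-7 were 3.68 CPM at 52 h and at most 1.68 CPM before, and its trend missed the threshold (1.40 ± 0.39, edgeR adjusted p = 0.0962). With DESeq2 or with the linear term alone it passed.

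Genes of the other lists moved in glp-4 beside them. Of 7 other sperm genes tested for a trend 1 rose, ssq-1, with 0 CPM at its lowest, 0.295 at the median and 3.34 CPM at its highest (fitted rise 8.21 ± 0.83, edgeR adjusted p = 0.0137). Of 16 oocyte and eggshell genes 3 rose and 1 fell. The largest fitted rises were those of the eggshell genes perm-2, which reached 572 CPM, and perm-4, which reached 971 CPM (10.15 ± 0.48 and 7.81 ± 0.41, edgeR adjusted p = 0.00267 and 0.00291). Of 14 germline markers edgeR called 0 within the course, with 2 lower and 0 higher at an unadjusted p under 0.05, and DESeq2 called 1 lower. The lowest and highest values of the P granule genes pgl-1 and glh-1 in glp-4 were 5.05 and 10.1 CPM and 32.3 and 48.1 CPM, against 482 to 628 CPM and 689 to 752 CPM in N2 at hours 34 to 36. Against N2, 13 of the 14 germline markers were lower in glp-4, with a summed level of 162 to 285 CPM in glp-4 and 940 to 3278 CPM over the whole continuous N2 course. The oocyte and eggshell list was lower in 13 of 16 cases, the other sperm genes in 18 of 19 and the regulators of sperm fate in 13 of 20, with 1 regulator, tra-2, higher by edgeR and 0 by DESeq2.

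Genes of other tissues were compared in the same way. Of 6 body-wall muscle genes 0 were called between glp-4 and N2 by edgeR and by DESeq2, and 2 were higher in glp-4 at an unadjusted p under 0.05. Of the 6 intestine genes 1 was higher in glp-4 (ges-1, 1.21 ± 0.21, edgeR adjusted p = 0.000701), and of the 6 neuronal genes 2 were higher (egl-3 and unc-17, 1.02 ± 0.16 and 1.13 ± 0.24, SE, log2), of which DESeq2 called 1. At an unadjusted p under 0.05 (edgeR), 3 intestine genes and all 6 neuronal genes were higher in glp-4, and 0 of either list were lower. Of 6 male markers 2 were higher and 1 lower in glp-4, with a summed level of 5.49 to 22.6 CPM. The part of these shifts in the sperm gene differences was not tested.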

How the data were processed

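Polyadenylated RNA of whole worms was sequenced from 45 libraries, with a stranded mRNA kit per the labels' protocols. The authors deposited raw counts per gene and a table of log2 values. Each deposited log2 value equals log2 of the count scaled by library totals within its course plus 8, to within 5.00e-05, and this table was not used further. The labels name no aligner, counter, strand setting, annotation or build, which were not given in the sources used here. Coordinates and exon lengths are from the Ensembl annotation of WBcel235. Symbols came from a names table that matched 18778 of the 20182 identifiers. The symbols msp-58 and spe-5 are in that table and were not analysed here.

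Tests on counts used edgeR 4.0.16 (R 4.3.3) after its filter on low counts, by quasi-likelihood F-tests with TMM factors. P-values were adjusted by Benjamini-Hochberg over all genes tested, and a gene was called at an adjusted p under 0.05 with a log2 change of 1 or more. In continuous N2 and glp-4 a linear term in the hour was tested next to an 8 h sine wave of free phase, which takes up the molting cycle. For dauer exit the hour entered as a natural spline (3 df), with direction and size from the fitted change between 1 and 22 h. The 7 glp-4 libraries were compared with N2 at hours 34 to 36 by a group term. Fitted changes use a prior count of 0.125 and depend on it for genes near 0, so a floor of 3 counts gives bounds for those. Fitted changes of the linear term follow a straight line on the log2 scale and can exceed the change in CPM. CPM was computed from library totals. The scripts were tested on simulated data. Alternatives were RLE size factors, library size only, no filter, DESeq2 1.42.0, other model terms, other windows and other onset thresholds.

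The genes and lists were chosen with earlier results of these data known. Named were, in each family, the 3 highest per kb, the earliest and latest onset, the 3 highest in glp-4, the spe genes with a listed role, the 2 largest called changes of each list and fixed genes; further genes, among them those in the decline after the peak, were named after their values were seen. A pair of spe genes counts in the family totals and is not reported by name here.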

Additional observations from a re-analysis of the deposited data

Results flagged for a closer look

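Among 27 sperm gene and family levels with at least 10 counts in glp-4, 4 had 1 of the 7 libraries far from the others by Dixon's criterion, which chance meets in about 1 of 20 groups. The summed nspd level was 3.79 CPM at 52 h, with 1.80 CPM as the next highest. The level of nspd-7 alone was 3.68 CPM at 52 h, with 1.68 CPM next. Most of the nspd sum was nspd-7, so the sum and the gene are not separate flags. At 42 h spe-47 had its lowest value, 0.312 CPM, with 0.670 CPM next, and in the same library spe-49 had its highest value, 0.284 CPM, with 0.136 CPM next.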

How the results depend on the processing

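The 59 sperm genes called higher in continuous N2, the 61 in dauer exit and the 62 called lower in glp-4 were called under every alternative in which they were tested: scaling, no filter and DESeq2 in all comparisons, the linear term alone, a spline with 4 degrees of freedom, N2 hours 31 to 36, glp-4 hours 40 to 46 or 48 to 52, and each N2 library left out in turn. With N2 hours 31 to 36, 55 of the 62 were tested, and with glp-4 hours 48 to 52, 60 were. With the linear term alone 58 of the 59 were tested. The direction of genes with few or no counts in glp-4 was fixed by the filter, as stated above. Leaving out 1 N2 library gave 1825 to 2341 genes higher and 3312 to 3530 lower in glp-4 among all genes, with 62 sperm genes lower and 0 higher each time. The trend within glp-4 depended most on the method. Over all genes it gave 745 higher and 220 lower by edgeR, 1667 higher and 687 lower by DESeq2, 404 lower with library size only and 499 lower with the linear term alone. Its sperm genes were 3 higher and 0 lower by edgeR (with 4282 genes at an unadjusted p under 0.05), 5 higher with the linear term alone (spe-26 and nspd-7 added), and 4 higher (nspd-7 added) and 1 lower (spe-42) by DESeq2; the cause was not tested. With library size only the glp-4 trends of spe-12 and spe-48 turned to -0.037 and -0.012, neither past the threshold. In glp-4 against N2 the estimate for ssp-37 ran from -1.04 to 0.29 with 1 N2 library left out (0.29 without hour 36) and turned to 0.68 with glp-4 hours 48 to 52. The msp median at 1 CPM in dauer exit came 2 h after the spe median, and 3.5 h after it at 0.5 CPM. With TMM factors the mean summed spe level in glp-4 was 85.8 CPM, against 77.5 CPM by library totals. The median fitted change of all genes in continuous N2 was -0.12 with TMM and 0.04 with RLE size factors, and in dauer exit 0.12 and 0.20, small beside the sperm gene changes other than those of spe-39 and spe-48. No paired analysis was possible because each time point has 1 library and the labels give no replicate numbers. A gene with 0 counts over the 7 glp-4 libraries could have had a level of up to 0.0133 CPM (3 counts).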
